A study of Mus musculus with 48 samples.

Results

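The 10 genes described here are the transcripts by which midbrain dopaminergic neurons are usually recognised: Th, Ddc, Slc18a2, Slc6a3, Aldh1a1, Nr4a2, Pitx3, En1, Drd2 and Ret. They were taken by gene symbol, without regard to their values, and are 10 of the 55385 genes counted in the substantia nigra of 48 mice. All 10 were among the 19601 protein-coding genes of the batch-corrected tables of 42 mice, and all 10 passed the filter on low counts that left 14839 genes for testing.

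The mice were male C57BL/6J, and each received an injection into the striatum of one side, either of alpha-synuclein preformed fibrils (PFF, aggregates that seed further aggregation of the protein) or of monomeric alpha-synuclein. They then breathed 21% O2 (normoxia) or 11% O2 (hypoxia) in chambers, and RNA was read from dissected substantia nigra 90 to 98 days after an injection given at 121 days of age. There were 12 mice in each of the 4 groups, of which 11 monomer mice at 21% O2, 12 PFF mice at 21% O2, 9 monomer mice at 11% O2 and 10 PFF mice at 11% O2 were kept after 6 mice had been left out as outliers of a principal component analysis. Every mouse carried alpha-synuclein injected into the striatum, so the controls share the surgery and the protein, and no uninjected group was compared. Which side of the nigra was taken is not given in the sources used here. The sources differ on how many weeks were spent at 11% O2, which was therefore not used. The mice were harvested in 3 batches: batch 1 held all 4 groups, batch 2 had no monomer mice at 11% O2, and batch 3 had no monomer mice at 21% O2. Total counts on genes were 12902996 to 17120921 in the 42 mice.

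The dopaminergic neurons of the substantia nigra send their axons to the striatum and are the cells whose loss causes the motor signs of Parkinson's disease. Th (tyrosine hydroxylase) makes L-DOPA in the rate-limiting step of dopamine synthesis, Ddc (aromatic amino acid decarboxylase) turns it into dopamine, Slc18a2 (VMAT2) loads dopamine into vesicles and Slc6a3 (the dopamine transporter) takes it back up from the extracellular space. Nr4a2 (Nurr1), Pitx3 and En1 are transcription factors that specify these neurons and stay on in the adult, Drd2 is the autoreceptor that limits their firing and release, Ret is the receptor tyrosine kinase for GDNF family ligands, and Aldh1a1 is an aldehyde dehydrogenase that marks the ventral tier of the nigra. In tissue RNA, fewer neurons and less RNA per neuron cannot be told apart.

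The bases before the transcription starts are shown for the genes of dopamine synthesis, storage and uptake, Th, Slc6a3, Slc18a2 and Ddc, because their products make and handle dopamine itself. Each line gives the 250 bases before a RefSeq start on GRCm38.p6, read 5′ to 3′ on the strand of the gene; Ddc and Aldh1a1 have a pair of starts each. Capitals mark matches, on either strand, to 1 of 6 motifs: AAAGGTCA (the site of Nr4a2 and its relatives, NBRE), TGACGTCA (the cAMP response element, CRE), TAATCC (the bicoid type bound by Pitx3), ACGTG (the core of the hypoxia response element), TGTTTAC (forkhead) and TATAAA (the box named after those letters, here called TATA box).
Th, chr7:142899996-142900245, minus strand: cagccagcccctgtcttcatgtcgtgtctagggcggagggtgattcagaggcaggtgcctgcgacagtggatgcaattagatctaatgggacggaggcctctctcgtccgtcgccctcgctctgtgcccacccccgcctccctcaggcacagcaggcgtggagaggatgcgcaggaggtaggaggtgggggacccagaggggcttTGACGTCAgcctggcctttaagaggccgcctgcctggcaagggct
Ddc (downstream start), chr11:11890409-11890658, minus strand: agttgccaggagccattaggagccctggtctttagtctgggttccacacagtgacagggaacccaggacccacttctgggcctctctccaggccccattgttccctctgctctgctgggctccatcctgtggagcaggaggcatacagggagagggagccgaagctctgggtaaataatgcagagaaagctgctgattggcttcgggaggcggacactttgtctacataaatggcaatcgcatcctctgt
Ddc (upstream start), chr11:11898145-11898394, minus strand: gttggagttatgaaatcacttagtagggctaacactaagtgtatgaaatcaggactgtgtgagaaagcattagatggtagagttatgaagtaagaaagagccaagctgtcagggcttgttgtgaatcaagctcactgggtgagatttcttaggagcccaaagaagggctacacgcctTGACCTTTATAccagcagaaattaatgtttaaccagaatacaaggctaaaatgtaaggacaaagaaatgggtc
Slc18a2, chr19:59260628-59260877, plus strand: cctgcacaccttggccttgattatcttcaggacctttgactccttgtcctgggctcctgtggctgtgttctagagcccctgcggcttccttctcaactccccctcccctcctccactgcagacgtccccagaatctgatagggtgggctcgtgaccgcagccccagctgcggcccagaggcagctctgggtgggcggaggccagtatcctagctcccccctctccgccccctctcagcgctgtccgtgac
Slc6a3, chr13:73536497-73536746, plus strand: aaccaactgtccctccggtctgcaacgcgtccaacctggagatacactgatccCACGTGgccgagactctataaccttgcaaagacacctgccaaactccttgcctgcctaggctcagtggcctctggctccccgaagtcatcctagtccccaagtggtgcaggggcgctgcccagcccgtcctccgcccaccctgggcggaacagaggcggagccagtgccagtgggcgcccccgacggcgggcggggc
A RefSeq window was found for 9 of the 10 genes, 11 windows in all. The CRE lay at -45 to -38 of Th, counted back from the start. Slc6a3 held the hypoxia response core on both strands in the letters CACGTG at -197 to -192, and En1 held the same letters at -175 to -170 and again at -158 to -153. The upstream start of Ddc had an NBRE on the opposite strand at -73 to -66, overlapping a TATA box on that strand at -68 to -63, and Nr4a2 had a TATA box on the opposite strand at -164 to -159. The windows of Slc18a2, Aldh1a1 (both), Pitx3 and Drd2 and the downstream start of Ddc matched none of the 6. Over all 32851 mouse windows of this length, 1.34% held the NBRE, 1.55% the CRE, 6.25% the bicoid type, 16.6% the hypoxia response core, 3.17% the forkhead motif and 12.4% the TATA box. No motif was thus shared by more than 2 of the 9 genes, and a match of letters is a description, not a binding site.

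All 10 genes were detected in every mouse, with Slc6a3 at 5526 to 25036 reads and the least abundant, Pitx3, at 58 to 265 reads in the 42 mice before correction. By mean TPM (transcript abundance per length and library size) over the 42 mice, Slc6a3 was highest at 1083 TPM, followed by Aldh1a1 at 651, Th at 604, Ddc at 416, Slc18a2 at 310, Ret at 191.4, Drd2 at 126, En1 at 69.1, Nr4a2 at 43.6 and Pitx3 at 26.1 TPM. On GRCm38 (1-based), Th lies at chr7:142892752-142931128 (minus strand), Ddc at chr11:11814101-11898144 (minus), Slc18a2 at chr19:59260896-59296012 (plus), Slc6a3 at chr13:73536747-73578672 (plus) and Aldh1a1 at chr19:20492715-20643465 (plus). Nr4a2 lies at chr2:57106830-57124003 (minus), Pitx3 at chr19:46135685-46148326 (minus), En1 at chr1:120602418-120607992 (plus), Drd2 at chr9:49340627-49408177 (plus) and Ret at chr6:118151745-118197718 (minus). Reads were counted without a named strand option, and exons of other genes cover 111 of the 5225 exon bases of Slc18a2 (the antisense gene Gm29261, median 0 reads) and 10 of the 1526 of Pitx3 (Elovl3, median 7 reads). Exons of the other 8 genes share no bases with exons of another annotated gene.

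Th did not separate the 4 groups. In monomer mice at 21% O2 Th ran from 131 to 991 TPM with a median of 656 (571 ± 262, mean ± SD, n = 11). In PFF mice at 21% O2 it ran from 96.1 to 954 with a median of 651 (585 ± 272, n = 12). At 11% O2 it ran from 109 to 1079 in monomer mice with a median of 707 (647 ± 323, n = 9). In PFF mice at 11% O2 it ran from 252 to 1027, also with a median close to 700 (704; 623 ± 260, n = 10). Each group held mice with little Th and mice with much, and the group ranges overlapped from 252 to 954 TPM. The highest group mean was 1.13 times the lowest, whereas within a group the highest mouse was 4.07 to 9.93 times the lowest.

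Slc6a3 behaved in the same way. Its level was 335 to 1647 TPM (median 1103; 1039 ± 413) in monomer mice at 21% O2 and 275 to 1932 TPM (median 1041; 1097 ± 535) in PFF mice at 21% O2. At 11% O2 it was 263 to 1879 TPM (median 1254; 1133 ± 518) in monomer mice and 561 to 1473 TPM (median 1157; 1067 ± 341) in PFF mice. As for Th, the lowest PFF mouse at 11% O2 stood above the lowest mice of the other groups, and the means differed by at most 1.09 times.

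For Ddc, Slc18a2, Ret, Drd2, Nr4a2 and Pitx3 the highest group mean was 1.02 (Drd2) to 1.14 (Ddc) times the lowest, against 2.99 to 12.6 times between mice of a group. Ordered by mean, neighbouring groups differed by less than the smaller of their SDs in 30 of 30 cases over the 10 genes. Ordering by mean keeps such gaps small, and an SD between mice is wider than the error of a mean. The count is therefore a description, not a test. The order itself was not shared: Th, Slc6a3, Slc18a2 and Ddc had their lowest mean in monomer mice at 21% O2 and their highest in monomer mice at 11% O2, while Ret was lowest in PFF mice at 11% O2 and highest in PFF mice at 21% O2.

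**Figure D1:**
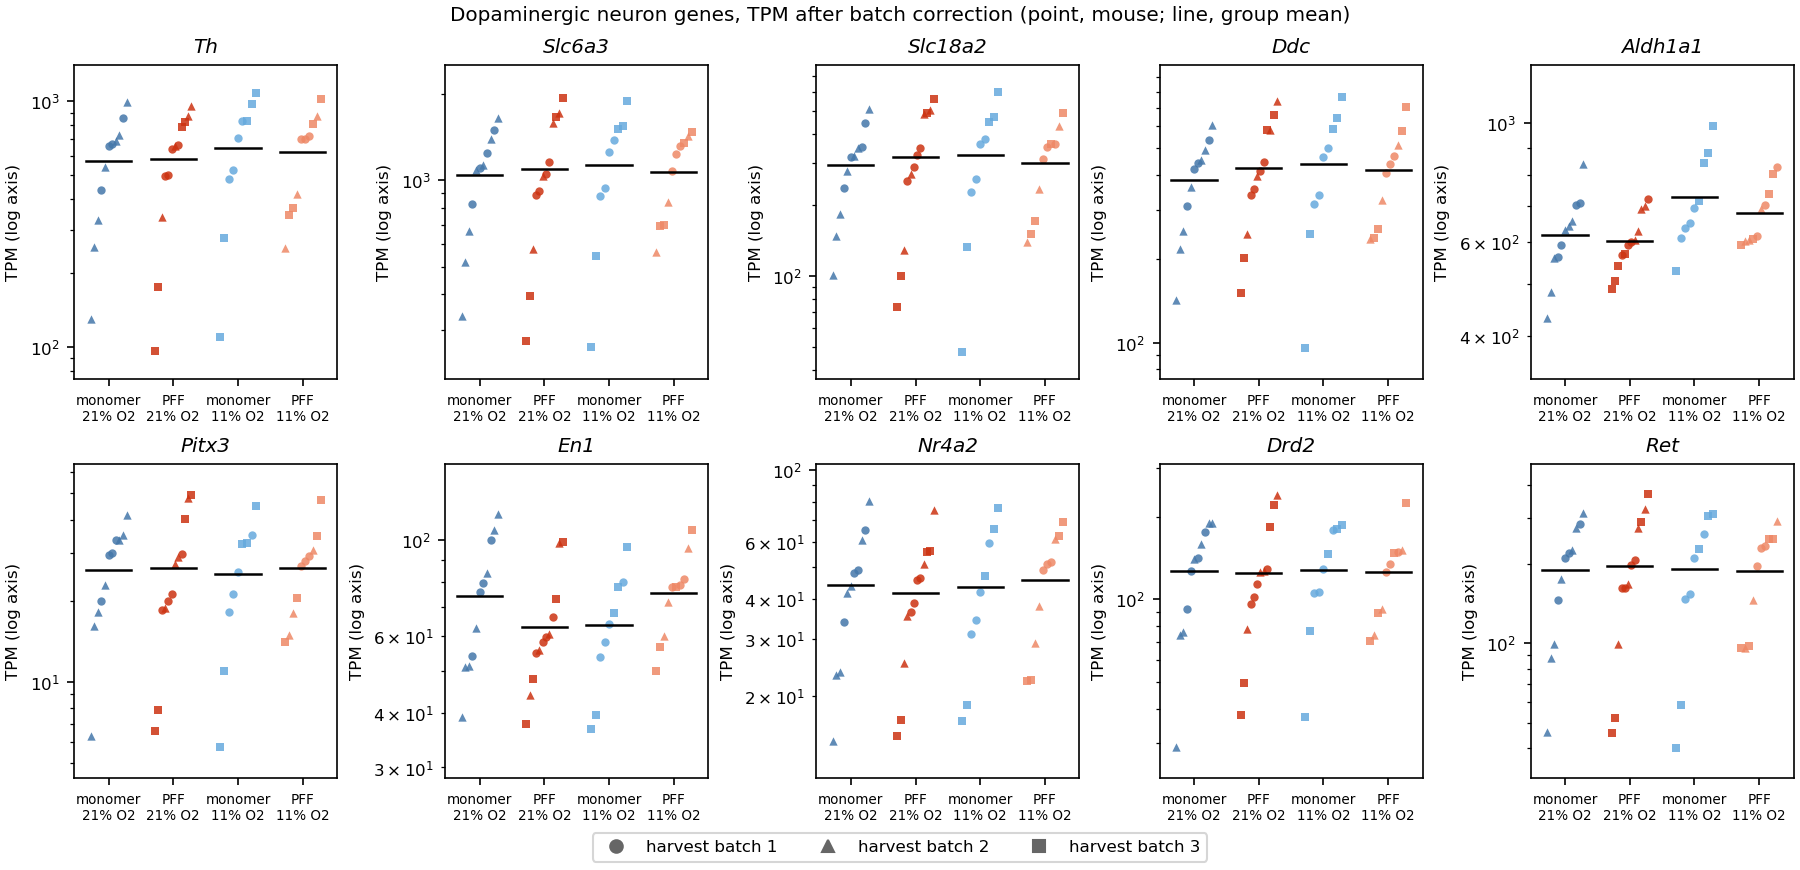
TPM after batch correction (vertical log axis) of each of the 10 genes in 42 mice, by group along the horizontal axis. Points are mice, set from left to right by level within a group, with circles, triangles and squares for harvest batches 1, 2 and 3, and the line is the group mean; the spread within each group is far larger than the distance between the lines, except in Aldh1a1.

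To ask whether PFF injection or O2 changed these genes, the 14839 genes were fitted together with edgeR's quasi-likelihood test, calling a gene at a Benjamini-Hochberg adjusted p below 0.05 and an absolute log2 fold change above 0.25. PFF against monomer at 21% O2, the comparison in which loss of dopaminergic neurons would lower these genes, called 0 of the 10, and 3.70% of all genes tested. None of the 10 had an unadjusted p under 0.05 by edgeR, DESeq2 or limma. Of the 10 log2 fold changes 7 were above 0 and 3 below, with a median of 0.04 beside 0.00 for all genes. Th had a log2 fold change of 0.05 (adjusted p = 0.95, SE 0.31), and its 95% interval ran from -0.58 to 0.69, a ratio of 0.667 to 1.61. Slc6a3 had a log2 fold change of 0.10 (adjusted p = 0.88, SE 0.27) and a 95% interval of the ratio of 0.730 to 1.57. With 12 and 11 mice, losses down to these lower bounds were therefore not told apart from no change.

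The direction differed between harvest batches 1 and 2, but whether the response depended on batch was not tested. Within batch 1, with 4 mice in each of these groups, 10 of 10 genes were lower in PFF mice (median log2 fold change -0.35), and within batch 2 9 of 10 were higher (median 0.21). Th was -0.34 (SE 0.28) in batch 1 and 0.34 (SE 0.28) in batch 2. No gene of the 10 was called within a batch, and since the genes rose and fell together from mouse to mouse, their shared direction is not 10 separate observations.

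PFF against monomer at 11% O2 also called 0 of the 10 genes, beside 0.00% of all genes, and no tool gave any of them an unadjusted p under 0.05; among all genes 581 had an unadjusted p under 0.05 by edgeR, DESeq2 called 1 and limma 0. Of the 10 log2 fold changes 3 were above 0, from 0.26 in En1, and 7 below, down to -0.10 in Slc18a2. Th stood at -0.04 (adjusted p = 1.00, SE 0.35), with a 95% interval of -0.74 to 0.65. Within batch 1 all 10 were higher in PFF mice (median 0.28) and within batch 3 8 of 10 were lower (median -0.07).

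Hypoxia in monomer mice called 0 of the 10 genes, against 7.23% of all genes. Aldh1a1 was the 1 gene with an unadjusted p under 0.05, by each of edgeR, DESeq2 and limma. Th had a log2 fold change of 0.19 (adjusted p = 0.77, SE 0.34; 95% interval -0.50 to 0.87), and the others ran from -0.21 in En1 to 0.24 in Aldh1a1. Within batch 1 9 of 10 were lower at 11% O2 (median -0.21). Outside batch 1 the monomer mice at 21% O2 were all of batch 2 and those at 11% O2 all of batch 3, so that there O2 and batch cannot be told apart.

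Hypoxia in PFF mice called 0 of the 10, against 0.580% of all genes, with no unadjusted p under 0.05 by any of the 3 tools. Th had a log2 fold change of 0.09 (adjusted p = 0.95, SE 0.32; 95% interval -0.56 to 0.74). Within batches the median of the 10 was 0.43 in batch 1 (10 of 10 higher), -0.30 in batch 2 (9 of 10 lower) and 0.13 in batch 3 (8 of 10 higher). The interaction, the PFF response at 11% O2 minus that at 21% O2, called 0 of the 10 and 2.14% of all genes. Its standard errors reached 0.47, and its value was positive for En1, Nr4a2 and Pitx3 and negative for the other 7. Within batch 1, the 1 batch that held all 4 groups, it was positive for 10 of 10 genes (median 0.64, from 0.15 in Aldh1a1 to 0.83 in Nr4a2), and none was called.

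**Figure D2:**
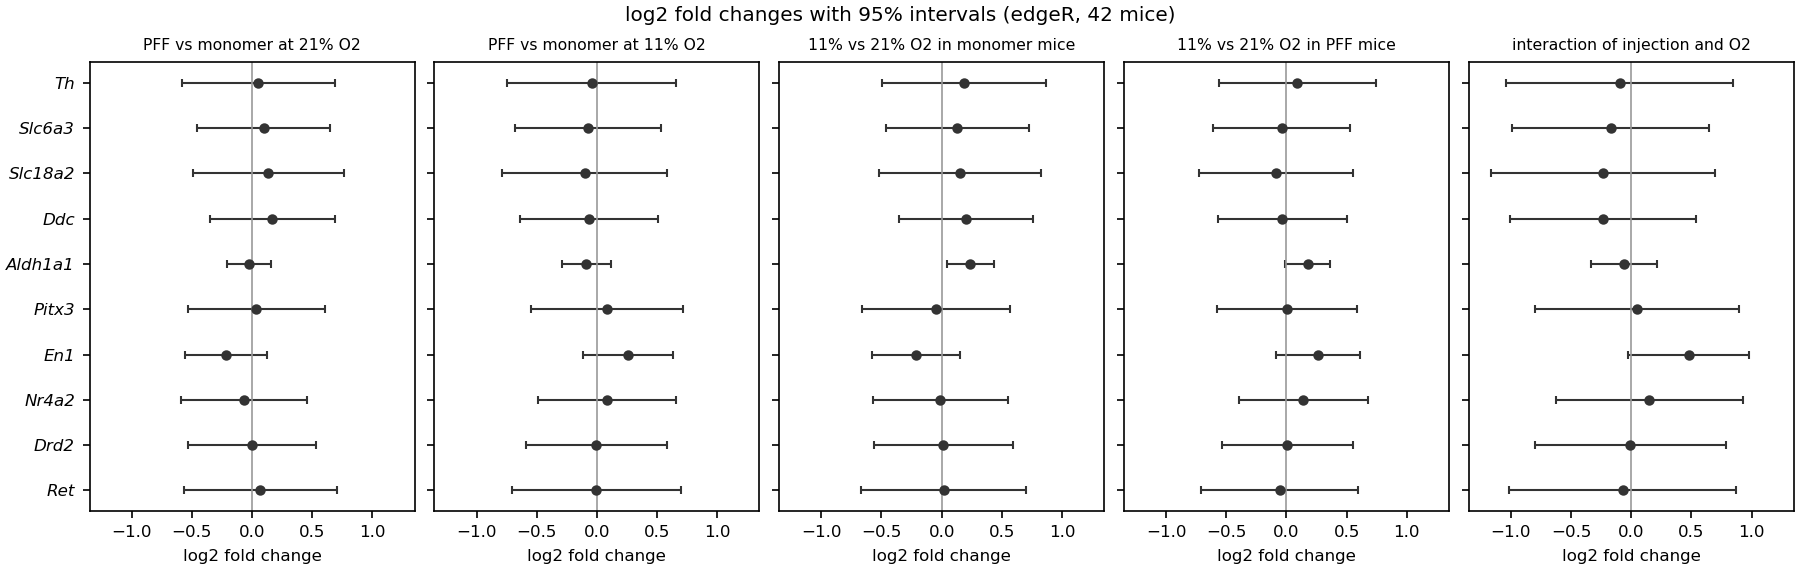
Log2 fold change (horizontal axis) of each of the 10 genes (vertical axis) in the 4 comparisons and the interaction; points are edgeR estimates over 42 mice and bars their 95% intervals. The intervals include 0 for all but Aldh1a1 in monomer mice, and those of Aldh1a1 and En1 are the shortest.

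Against this, the spread between mice set these genes apart from most of the transcriptome as a description. Their biological coefficient of variation, edgeR's estimate of the relative spread between mice of a group, was 51.2% for Th and Ret, 50.4% for Slc18a2, 46.6% for Pitx3, 44.5% for Slc6a3, 43.3% for Drd2, 42.4% for Nr4a2 and 41.95% for Ddc, beside a median of 8.61% for all genes tested. These 8 genes lay at the 97.9th to 98.7th percentile of that spread. En1, at 27.5%, lay at the 95.1st percentile and Aldh1a1, at 15.2%, at the 82.9th. A wide spread was not particular to these genes. Slc17a6 of excitatory neurons ran from 0.043 to 120 TPM and the striatal gene Tac1 from 0.069 to 71.4 TPM. Other genes of neighbouring cells spanned less, such as Gad1 of GABA neurons at 266 to 620 TPM. The 4 groups accounted for 0.0608% (Slc18a2) to 18.5% (Aldh1a1) of the variance of the log2 level, with a median of 0.669% over the 10 genes.

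The spread was uneven between batches, and the correction changed it. Before correction Th spanned 2.76-fold in the 15 mice of batch 1, 3.68-fold in the 14 of batch 2 and 4.91-fold in the 13 of batch 3. After correction it spanned 1.96-fold (434 to 853 TPM), 7.59-fold and 11.2-fold (96.1 to 1079 TPM). The batch means of Th before correction were 733, 541 and 501 TPM, and 640, 574 and 593 TPM after it. Thus the correction brought the batch means together while it narrowed batch 1 and widened batches 2 and 3. The biological coefficients of variation and percentiles above rest on the corrected counts and were not estimated before correction.

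Some mice were low in all or most of the 10 genes. The monomer mouse 6 at 21% O2 (batch 2) and the monomer mouse 11 at 11% O2 (batch 3) were among the 5 lowest of 42 for all 10 genes, and PFF mice 10 and 12 at 21% O2 (both batch 3) for 9 of 10. The monomer mouse 11 at 11% O2, which was harvested last, at 98 days, had 109 TPM of Th, 263 of Slc6a3 and 5.72 of Pitx3. The monomer mouse 11 at 21% O2 (batch 2) stood at the other end, among the 5 highest for 9 of the 10. Not all mice kept their place, above all in Aldh1a1. Monomer mouse 7 at 11% O2 had the lowest En1 of the 42 but rank 34 from the lowest for Aldh1a1. PFF mouse 9 at 21% O2 had the highest Ret but rank 4 from the lowest for Aldh1a1.

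The ratio of Th to Slc6a3 varied less between mice than the level of either gene. The Th to Slc6a3 ratio ran from 0.350 to 0.697 with a median of 0.549, a 1.99-fold span where Th itself spanned 11.2-fold and Slc6a3 7.33-fold. Within group and batch, the SD of the log2 level was 0.93 for Th and 0.80 for Slc6a3, and that of their log2 ratio was 0.18. Th expressed relative to Slc6a3 averaged 53.2% ± 6.87 in monomer mice at 21% O2, 52.7% ± 8.64 in PFF mice at 21% O2, 55.1% ± 6.49 in monomer mice at 11% O2 and 56.5% ± 7.75 in PFF mice at 11% O2, so the group means of the ratio lay within 1 SD of each other. The ratio of Th to Ret had the smallest spread of the 45 ratios (SD 0.17), and that of Aldh1a1 to Ret the largest (SD 0.77).

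Co-variation was tested over the 42 mice after subtracting each group-and-batch mean from log2(TPM + 1), with 100000 two-sided permutations of mice within group and batch, for 45 pairs. The 6 pairs among Th, Ddc, Slc18a2 and Slc6a3 had Pearson's r of 0.97 to 0.99 and Spearman's rho of 0.97 to 0.99. Slc6a3 and Slc18a2 were the closest pair (r = 0.99, rho = 0.99; 0.99 without the 2 mice farthest from the median of Slc6a3). The 28 pairs among all genes but En1 and Aldh1a1 had r of 0.92 to 0.99.

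En1 and Aldh1a1 followed less closely. En1 correlated with the 8 others at r of 0.84 (Slc18a2) to 0.92, and Aldh1a1 with the 9 others at 0.71 (En1) to 0.78. Over the 45 pairs the permutation p was at most 2e-05 for r and 1e-05 for rho, also after Benjamini-Hochberg adjustment, where 1e-05 is the smallest value these permutations can give. Leaving out the 2 mice farthest from the median left r between 0.67 and 0.99. The total of counts, which the correlated values share as a scale, had an r of 0.00 with the mean of the 10 standardised genes.

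The co-variation held within each group, as a description. The median r of the 45 pairs was 0.96 in monomer mice at 21% O2, 0.95 in PFF mice at 21% O2, 0.97 in monomer mice at 11% O2 and 0.90 in PFF mice at 11% O2. It was 0.94, 0.93 and 0.95 in batches 1, 2 and 3, although the SD of log2 Th was 0.31 in batch 1 and 1.32 in batch 3. Pairs with Aldh1a1 were the weakest, down to 0.21 in PFF mice at 21% O2, where the SD of log2 Aldh1a1 was 0.12; without Aldh1a1 no pair there was below 0.81.

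**Figure D3:**
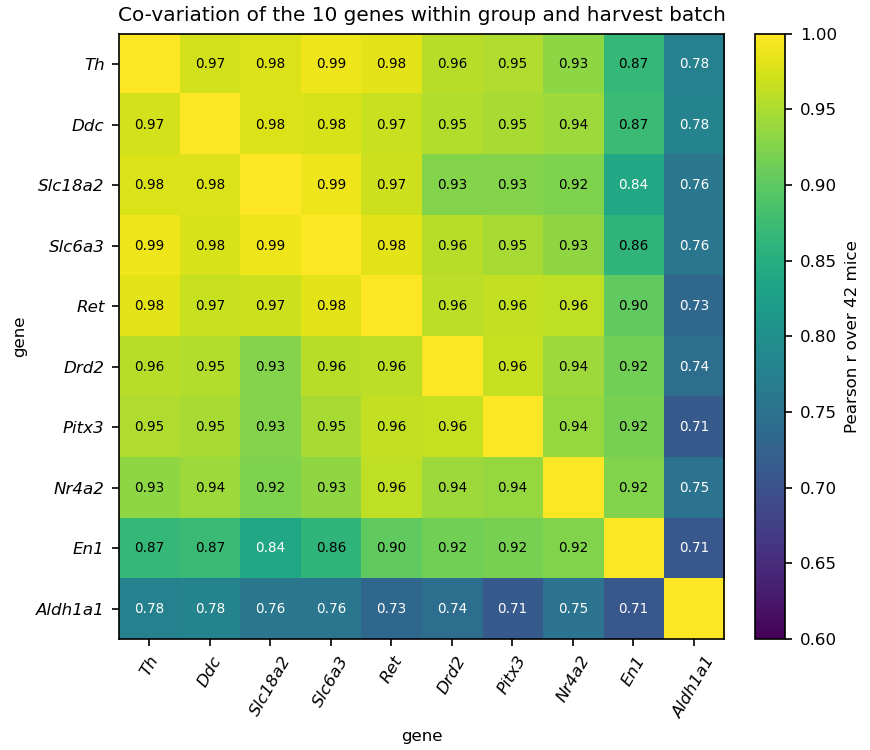
Pearson's r (colour and printed number) between the levels of each pair of the 10 genes over 42 mice, on log2(TPM + 1) less the mean of each group and batch. The block of 8 genes at the upper left has values of 0.92 to 0.99, with lower values in the rows of En1 and Aldh1a1.

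**Figure D4:**
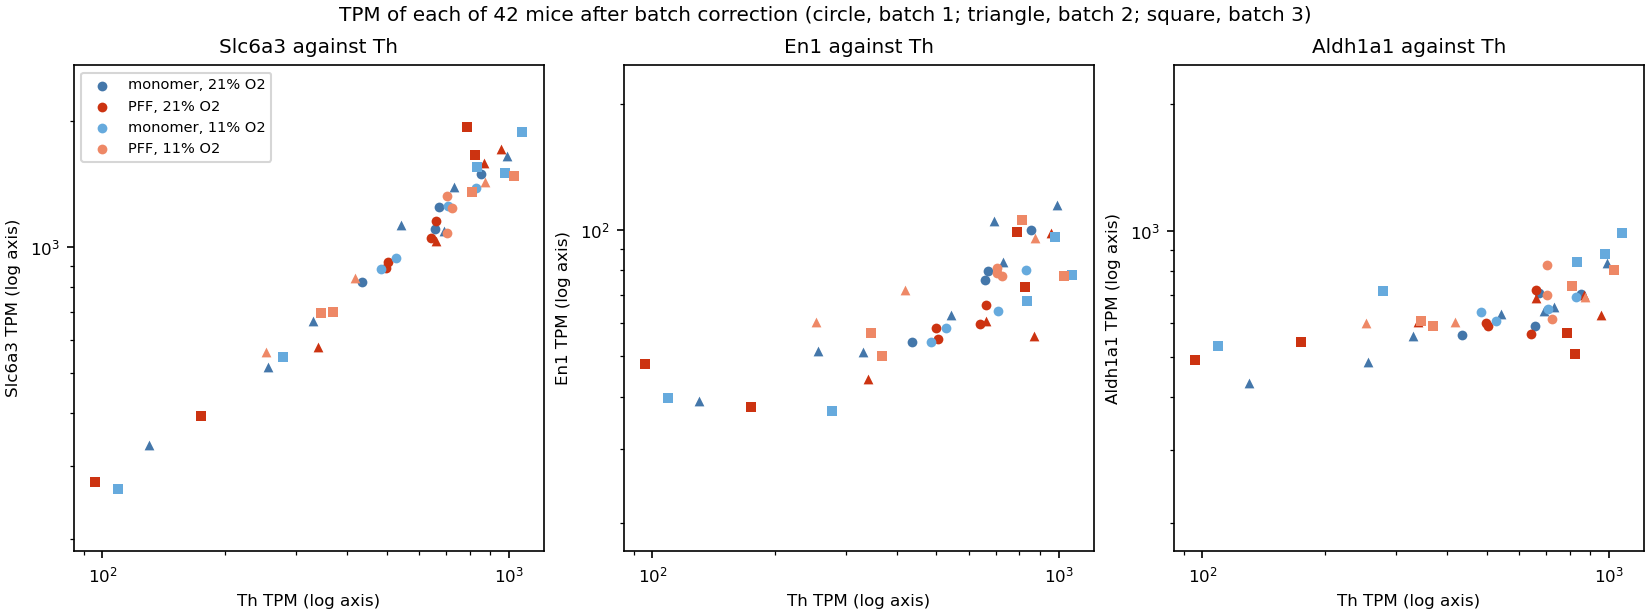
TPM of Slc6a3, En1 and Aldh1a1 (vertical log axes, each of the same fold span) against TPM of Th (horizontal log axis); points are the 42 mice, coloured by group, with the marker shape for the batch. Slc6a3 climbs with Th over the whole 11.2-fold span of Th, En1 spans 3.11-fold and Aldh1a1 2.28-fold.

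En1, a homeodomain factor needed for the survival of adult dopaminergic neurons, had the largest interaction of the 10 genes in the fit over the 3 batches, though not within batch 1. At 21% O2 it ran from 39.1 to 115 TPM (median 75.7; 74.3 ± 24.9, n = 11) in monomer mice and from 37.7 to 99.02 TPM (median 59.1; 63.0 ± 19.2, n = 12) in PFF mice. At 11% O2 it ran from 36.9 to 96.2 TPM (median 64.1; 63.9 ± 19.3, n = 9) in monomer mice and from 50.0 to 105 TPM (median 77.7; 75.5 ± 17.0, n = 10) in PFF mice. All 4 ranges overlapped between 50.0 and 96.2 TPM. The log2 fold change for PFF was -0.22 (adjusted p = 0.46, SE 0.17) at 21% O2 and 0.26 (adjusted p = 1.00, SE 0.18) at 11% O2. That for 11% O2 was -0.21 (adjusted p = 0.48, SE 0.18) in monomer mice and 0.26 (adjusted p = 0.62, SE 0.17) in PFF mice. The interaction was 0.48 (SE 0.25, 95% interval -0.03 to 0.98), with an unadjusted p of 0.063 and an adjusted p of 0.36 by edgeR, and was not called.

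The interaction of En1 was called once the mean level of 7 other dopaminergic genes was held constant. A covariate was built from 7 dopaminergic genes outside the 10 (Slc10a4, Chrna6, Chrnb3, Gch1, Foxa1, Lmx1a and En2), whose mean log2 level was -0.06, 0.02, -0.02 and 0.05 in monomer and PFF mice at 21% O2 and monomer and PFF mice at 11% O2, with SDs of 0.77 to 1.00. With it, the SEs of the 10 genes fell by a factor of 1.34 (Aldh1a1) to 4.60 (Ret), and r with the covariate was 0.72 for Aldh1a1, 0.87 for En1 and 0.94 to 0.98 for the others. The interaction of En1 was then 0.50 (adjusted p = 0.031, SE 0.14, 95% interval 0.22 to 0.77), where 2.65% of all genes were called, and was the 1 value called of 50 (5 comparisons of 10 genes). The PFF response was -0.24 (adjusted p = 0.083, SE 0.09) at 21% O2 and 0.26 (adjusted p = 1.00, SE 0.10) at 11% O2, neither of them called. The 7 genes did not follow the mean of the 10 equally. En2 had an r of 0.34 with it, and Lmx1a (r 0.83) spanned 0.069 to 22.7 TPM, so low values of Lmx1a weigh on the covariate. Other choices of genes were not tested.

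The call stood near the threshold. Without any 1 mouse, the interaction of En1 under this covariate was 0.42 to 0.56 and was called in 38 of 42 cases. The shares of all genes called in these refits are not given here. The En1 interaction lost its call without monomer mouse 1, 2 or 7 at 11% O2 or PFF mouse 6 at 21% O2. Its edgeR adjusted p was then up to 0.053. On uncorrected counts with batch as a further covariate, an analysis added, as was leaving out mice under this covariate, after the data were seen, it was 0.45 (adjusted p = 0.016, SE 0.11) in the 42 mice, where 1.89% of genes were called, and 0.43 (adjusted p = 0.12, SE 0.15) in all 48, where 1.31% were. In those 42 mice the En1 response to PFF at 21% O2 (-0.26, adjusted p = 0.012) and to 11% O2 in PFF mice (0.27, adjusted p = 0.026) were also called, with the shares of all genes not given here, and in the 48 neither was. Within batch 1, without the covariate, it was 0.77 (SE 0.28), with an unadjusted edgeR p of 0.015 and an adjusted p of 0.52. All 10 genes were positive there, with Nr4a2 at 0.83 and Ret at 0.79 above En1 and Th at 0.66, so that value was not particular to En1. In batches 2 and 3, where the interaction could not be formed, En1 in PFF mice was higher at 11% O2 by 0.26 (SE 0.24) and 0.19 (SE 0.29) on the log2 scale. Monomer mice at the 2 O2 levels outside batch 1 came from different batches, and the share of that in the interaction was not tested.

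**Figure D5:**
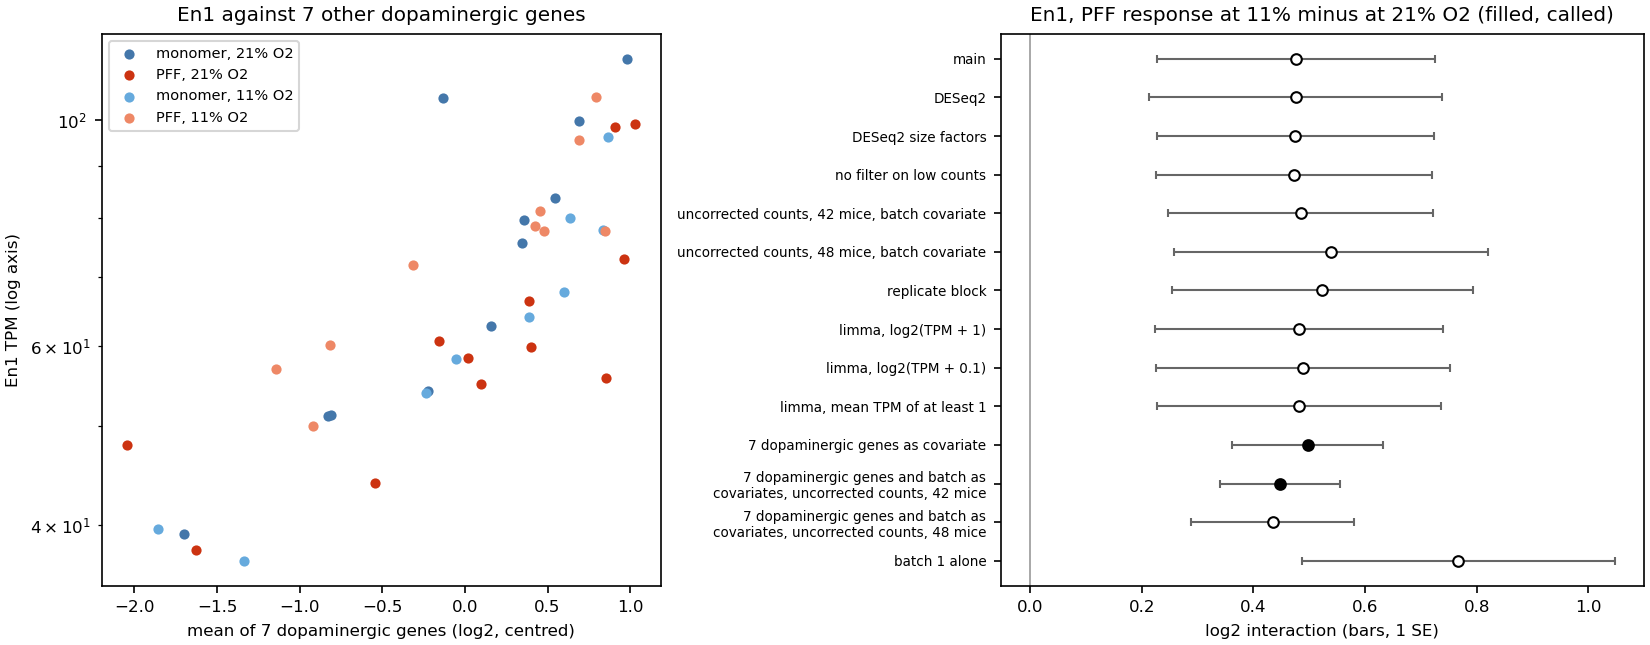
Left, En1 TPM (vertical log axis) against the mean log2 level of 7 other dopaminergic genes (horizontal axis) in 42 mice coloured by group; right, the interaction of En1 (horizontal axis, log2, bars 1 SE) under each analysis (vertical axis), filled where it was called. The interaction lies between 0.43 and 0.77 in all 14 analyses and is called in 2, both with the 7 genes held constant.

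Aldh1a1 had the narrowest spread and the largest share of variance between groups. At 21% O2 it ran from 432 to 838 TPM (median 632; 619 ± 112, n = 11) in monomer mice and from 490 to 722 TPM (median 596; 601 ± 74.2, n = 12) in PFF mice. At 11% O2 it ran from 530 to 986 TPM (median 696; 727 ± 146, n = 9) in monomer mice and from 592 to 827 TPM (median 654; 678 ± 87.8, n = 10) in PFF mice. The hypoxic groups had the higher means, with ranges that overlapped those of the normoxic groups. In monomer mice the log2 fold change for 11% O2 was 0.24 (SE 0.10, 95% interval 0.04 to 0.44), a ratio of 1.03 to 1.353, with an unadjusted p of 0.019 and an adjusted p of 0.099 by edgeR. In PFF mice it was 0.17 (adjusted p = 0.51, SE 0.09, 95% interval -0.01 to 0.36).

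The value of Aldh1a1 in monomer mice moved with single mice and was smaller in batch 1, the 1 batch with monomer mice at both O2 levels. Leaving out 1 mouse at a time gave log2 fold changes of 0.17 to 0.29. Without monomer mouse 11 at 21% O2, the highest of its group, the log2 fold change was 0.29 (edgeR adjusted p = 0.041, SE 0.10). Without monomer mouse 11 at 11% O2, the lowest of its group, it was 0.29 (edgeR adjusted p = 0.046, SE 0.10). Both were called, with the shares of all genes in these refits not given here. With the 7 genes held constant the log2 fold change was 0.23 (edgeR adjusted p = 0.023, SE 0.07), under the fold threshold. Within batch 1 it was 0.04 (SE 0.10). In PFF mice the 3 batches gave 0.19, -0.03 and 0.38. Within monomer mice, 8 of 8 endothelial genes were higher at 11% O2 (median log2 fold change 0.52), and 7 were called, beside 7.23% of all genes. Their summed TPM was 340 to 463 in monomer mice at 21% O2 and 411 to 687 at 11% O2. The part of these genes in the value of Aldh1a1 was not tested.

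Further dopaminergic genes were also rarely called. Of 19 genes on a list of further dopaminergic neuron genes, 0 were called for PFF at 21% O2 (11 higher, 8 lower, median 0.06), for PFF at 11% O2, for hypoxia in PFF mice or for the interaction. For hypoxia in monomer mice 14 of 19 were higher and 1 was called, beside 7.23% of all genes. It was Anxa1, which marks a subset of Aldh1a1-positive nigral neurons, at 0.66 (adjusted p = 0.022, SE 0.20). The mean of the 19 had r of 0.99 with the mean of the 10 standardised genes over 42 mice. As a description, 12 of the 19 had r above 0.9 with it, among them the most abundant, Slc10a4 (0.99), Chrna6 (0.97) and Dlk1 (0.97). Sox6 (0.51), En2 (0.34) and Otx2 (0.02), which is typical of the ventral tegmental area, followed least.

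Over all 14829 other genes tested, the r to that mean had a median of -0.01, and 63 genes were above 0.9. The 10 most alike were Slc10a4 (0.99), Chrnb3 (0.99), Sv2c (0.98), Fam167a (0.98), Cpne7 (0.98), Ntsr1 (0.98), Chrna5 (0.97), Gucy2c (0.97), Cadps2 (0.97) and Foxa1 (0.97). Chrnb3 and Chrna5 are nicotinic receptor subunits, Ntsr1 is a neurotensin receptor, Sv2c and Cadps2 are proteins of vesicle release and Foxa1 is a forkhead factor. Slc10a4 spanned 35.8 to 389 TPM and Ntsr1 4.71 to 84.5 TPM. The 5 least alike were Yap1 (-0.77), Smad6 (-0.77), Nfib (-0.76), Nfia (-0.76) and Kctd12 (-0.75), of which Yap1 spanned 7.54 to 13.7 TPM and Nfia 14.1 to 22.3 TPM.

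The enzymes around dopamine were not one block. None of 9 genes of dopamine breakdown and of the tetrahydrobiopterin cofactor was called in any comparison, and their mean had r of 0.30 with that of the 10. Gch1, which makes the cofactor of Th, had r of 0.94 with the mean of the 10 genes and Pcbd1, which recycles it, 0.83. Qdpr (-0.08) and Aldh2 (-0.51), which are more abundant, did not follow, and neither did Maob (-0.47), which is mostly glial.

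Transcripts of astrocytes, microglia and endothelial cells moved against the 10 genes from mouse to mouse. All 10 astrocyte genes and all 10 microglia genes had a negative r with the mean of the 10, among them Gfap (-0.64), Slc1a2 (-0.51) and Aqp4 (-0.70), and C1qa (-0.67) and C1qb (-0.65). The mean of each list had r of -0.71 (astrocyte), -0.68 (microglia), -0.50 (endothelial; Slc2a1 -0.55, Cldn5 -0.39, Ly6c1 -0.27) and -0.26 (oligodendrocyte; Mbp -0.28, Mobp -0.21). Their summed TPM overlapped between groups: 1784 to 4470 for astrocyte genes, 1244 to 2818 for microglia genes and 9558 to 15343 for oligodendrocyte genes over the 4 groups. Genes of GABA neurons, the main cells of the neighbouring pars reticulata, were on both sides (list r -0.08), with 5 of 8 negative. Gad1 stood at -0.63, Pvalb at -0.56 and Slc32a1 at -0.53, but Calb1, also a dopaminergic transcript, at 0.83. Sst (0.66) and Calb2 (0.64) were positive too. General neuron genes (list r 0.42) likewise ranged from -0.64 (Nefl) to 0.90 (Syt1), with Uchl1 at 0.73, Tubb3 at 0.66 and Snap25 at 0.16. The part of the dissection in this pattern was not tested.

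The remaining lists gave r of 0.27 (dopamine receptors and striatal neurons; Ppp1r1b -0.63, Penk 0.41, Tac1 0.54), 0.38 (other monoamine neurons, with 2 of 8 genes at a median of 0 and Hdc, Tph2 and Slc5a7 below 10 TPM in every mouse), 0.07 (excitatory neurons of neighbouring regions; Slc17a6 0.56, Prox1 -0.05, Prkcd -0.43) and 0.31 (choroid plexus; Ttr 0.14, Otx2 0.02, Clic6 0.84). The group comparisons gave the following calls in these and the glial lists. Of all genes, 3.70% were called for PFF at 21% O2 and 7.23% for hypoxia in monomer mice. The share was 0.580% for hypoxia in PFF mice and 2.14% for the interaction. For PFF at 21% O2 Opalin (0.60, SE 0.10) and Slco1a4 (0.45, SE 0.14) rose. For hypoxia in monomer mice Cnp, Mog and Opalin of 10 oligodendrocyte genes, Adora2a of 8 striatal genes tested and Prox1 of 9 excitatory genes rose, beside the 7 endothelial genes, which included Cldn5 (0.74, SE 0.11), Flt1, Pecam1, Cdh5 and Ly6c1. For hypoxia in PFF mice Adora2a, Cldn5 and Flt1 rose, and the interaction was negative for Mog and Opalin. No astrocyte, microglia, GABA neuron, general neuron, other monoamine neuron or choroid plexus gene was called in any comparison.

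The 6 mice left out of the corrected tables were on the low side. Before correction their Th was 62.6, 81.0, 191.1, 435, 440 and 470 TPM, where the 42 others ran from 185.2 to 1153 with a median of 583. The lowest of them were monomer mice at 11% O2, replicates 9 and 8, which also had the least Slc6a3 (115 and 147 TPM) and Ret (22.9 and 26.4 TPM) of the 48. PFF mouse 2 at 11% O2, also left out, had 3134594 counts on genes, the fewest of the 48. With all 48 mice, uncorrected counts and batch as a covariate, edgeR called 0 of the 10 genes in each of the 5 comparisons. In that edgeR fit 0 of the 50 values had an unadjusted p under 0.05. Th for hypoxia in monomer mice was then -0.08 (SE 0.34) in place of 0.19.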

How the data were processed

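RNA of 48 substantia nigra samples was sequenced as poly(A)-selected libraries. Per the labels and the study's methods, the authors removed ribosomal reads, aligned with STAR 2.7.5a to mm10 (GRCm38), removed duplicates with Picard 2.21.9 and deposited counts per gene from featureCounts 2.0.1 (multimapping reads counted at their primary alignment, no strand option named), with TPM made from them. For 42 mice the authors deposited protein-coding counts adjusted with ComBat-seq for harvest batch, keeping O2 and injection as covariates, and TPM of those counts. ComBat-seq alters means and dispersions, and tests on its counts treat them as if they had been observed. Levels and correlations here use the corrected TPM.

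Corrected counts were tested with edgeR 4.0.16 (TMM, filterByExpr, quasi-likelihood F test) in R 4.3.3, with 4 group means and 5 contrasts over all genes and Benjamini-Hochberg adjustment. Separate animals are replicates. Intervals are 95% from the SE with 38 residual degrees of freedom. No pair of libraries agreed within sampling noise (lowest chi-square per gene 2.20). DESeq2 1.42.0 and limma 3.58.1 served as alternatives, as did other scalings, filters, uncorrected counts, single batches, a covariate of 7 genes and leaving out each mouse. The edgeR and permutation scripts were tested on simulated data. Genes named outside the 10 were the 10 most and 5 least correlated. In each list they were also the 3 most abundant and those called, up to 5 in a comparison. En2, Otx2, Sox6, Maob, Gch1, Pcbd1, Calb1, Calb2, Sst, Nefl and Syt1 were added after their values were seen. Some genes that this rule names are not reported here. The 10 genes and all lists were chosen with earlier results of these data known. Gene models are GENCODE vM21; promoters are from RefSeq.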

Additional observations from a re-analysis of the deposited data

Results flagged for a closer look

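Among the 20 combinations of the 10 genes with the groups of 9 and 10 mice, 1 held a mouse far from the others: Drd2 in PFF mice at 11% O2, where mouse 9 had 225 TPM and the next highest 151 TPM, a gap of 0.474 of the group's range. About 1 in 20 groups would be marked by chance. The groups of 11 and 12 mice were not examined in this way. No gene of the 10 had an interaction with an adjusted p under 0.05 in the edgeR fit without covariate.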

How the results depend on the processing

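No gene of the 10 was called in any of the 5 comparisons with DESeq2, with DESeq2's size factors, without the filter on low counts, on uncorrected counts with batch as a covariate (42 or 48 mice), with limma on log2(TPM + 1) or log2(TPM + 0.1) or at a mean TPM of at least 1, or in single batches. Holding the 7 dopaminergic genes constant called 1 gene, En1, for the interaction, beside 2.65% of all genes. With batch added on uncorrected counts of 42 mice, chosen after seeing the data, 1 was called for PFF at 21% O2, 1 for hypoxia in monomer mice, 1 for hypoxia in PFF mice and 1 for the interaction, and with 48 mice 1 for hypoxia in monomer mice. The calls were En1, and Aldh1a1 for hypoxia in monomer mice (0.26 and 0.28). For the interaction, 1.89% (42 mice) and 1.31% (48 mice) of all genes were called in these fits. The shares for the other comparisons are not given here, so those counts have no background beside them. Leaving out each mouse gave 0 to 1 genes called for hypoxia in monomer mice and 0 in the others. The shares of all genes in those refits are not given here either. The median r of the 45 pairs stayed at 0.94 to 0.95, and the median coefficient of variation, 41.3%, was 42.9% before correction in 48 mice.

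Signs of the fold changes were not stable, and those that turned reached an absolute log2 value of 0.236 (the interaction of Slc18a2). Of 50, between 17 and 24 turned under the uncorrected counts, limma, the replicate block and the covariates, and all stayed within the 95% intervals first given. In batch 1 alone 31 of 50 turned and 48 of 50 stayed within them. In batch 2 alone 7 of 20 and in batch 3 alone 5 of 20 turned, with 19 of 20 within them in each. Th for PFF at 21% O2 was -0.019 on uncorrected counts of 42 mice, -0.056 with the replicate block, -0.014 in each limma fit and -0.073 with the 7 genes held constant. Th for PFF at 11% O2 was 0.037 on uncorrected counts of 42 mice and 0.22 of 48, 0.068 to 0.069 in the limma fits and 0.016 with the 7 genes. Th for hypoxia in monomer mice was -0.083 in 48 mice. Slc6a3 for PFF at 21% O2 was -0.029 uncorrected, -0.014 with the block and -0.039 with the 7 genes. The cause was not tested.

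The replicate numbers did not pair the mice: correlations of same-numbered mice ran from -0.38 to 0.39, and the block called 0 of the 10 genes (lowest adjusted p = 0.23 by edgeR). Each of the 10 genes had at least 58 reads in every one of the 42 mice.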
